A study of Rattus norvegicus with 32 samples.

Results

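Notch receptors, their ligands and 2 of their target genes were followed in liver sinusoidal endothelial cells (LSECs), the fenestrated cells that line the liver's capillaries, through the course of chronic liver disease in rats. The genes were the receptors Notch1, Notch2, Notch3 and Notch4, the ligands Dll1, Dll4, Jag1 and Jag2, and the targets Hes1 and Hey1. They were found by their symbols in the deposited tables, and these 10 genes are 10 of the 32623 genes listed. All 10 had enough counts to be tested in every comparison, and none was at 0 in any of the 32 libraries.

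Libraries came from healthy untreated rats (n = 6) and from rats that inhaled carbon tetrachloride (CCl4), a hepatotoxin, for 2 weeks (acute injury, n = 5), for 6 weeks (fibrosis, n = 5) or for 12 to 14 weeks (cirrhosis, n = 6). These rats were Wistar Han, those given CCl4 were male, and phenobarbital in the drinking water was part of the CCl4 model. The duration for the cirrhotic libraries stands in the description of the series and not in their own labels, which say only that the rats received CCl4. A second experiment used another hepatotoxin, thioacetamide (TAA). The paper describes it as given intraperitoneally to male rats 2 times a week for 12 weeks, with saline for controls. Of the libraries of this experiment, 5 carry the label control and 5 the label TAA control. Which of these groups received TAA is not settled by the sources, so values are given by label and no direction of TAA is drawn. The labels name Wistar Han for these rats too, while the description of the series names Sprague-Dawley. LSECs came from perfused and digested livers over a density gradient, some days after the last dose of toxicant in treated rats, and no source names a sort for a marker, so other liver cells can be present. No batch is given anywhere, and one running parallel to the stages cannot be told apart from the effect of stage.

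Totals ranged from 25646501 to 46464271 rounded counts per library. Levels are given as CPM, counts scaled to a common library total with TMM factors over the 22 CCl4 libraries and separately over the 10 libraries of the TAA experiment. A level in one experiment was not tested against the other, and levels of different genes were not compared, since transcript lengths were not used here. Summed CPM of 8 genes that mark LSECs, such as Stab2 and Lyve1, ran from 13102 to 23103 in healthy libraries, from 1796 to 2297 after acute injury, from 1219 to 2032 in fibrosis and from 11798 to 15074 in cirrhosis. Every gene of that list was detected in every library. Of these 8 markers, 7 were lower after acute injury and 8 in fibrosis than in healthy LSECs. Of 7 markers of endothelium in general, 5 were lower and 1 higher after acute injury. Their summed CPM ran from 2738 to 3748 there and from 7669 to 13508 in healthy libraries. Means within that list differed in direction. Cdh5, the endothelial cadherin, had 1597 CPM after acute injury and 1293 CPM in healthy LSECs. Erg had 138 and 77.7 CPM, and Tek 411 and 677 CPM, in the same order. In bulk RNA, fewer LSECs in a sample and less RNA of the LSEC markers per LSEC cannot be told apart. Under the label TAA control, replicates 14 and 15 formed a close pair, with a chi-square over genes of 3.05 per degree of freedom where other pairs within a group had 25.2 or more. Sampling noise alone gives less than this. Whether they came from separate rats is not settled by the sources, and both were kept as libraries of their own. Were they from the same rat, the p-values of the TAA experiment would rest on fewer independent libraries than counted. Summing them changed no call or sign among the 10 genes.

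Notch signalling passes between neighbouring cells. A ligand of the Delta-like or Jagged family on one cell binds a Notch receptor on the next, the receptor is cut by an ADAM protease and then by gamma-secretase, and the released intracellular domain enters the nucleus. There it joins the DNA-binding protein Rbpj and coactivators of the Mastermind family and switches on target genes, chiefly the transcriptional repressors of the Hes and Hey families. In blood vessels the pathway is known for arterial identity and for the choice of tip and stalk cells in sprouting, and in the liver for bile duct formation and for the state of the sinusoidal endothelium.

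The binding core of Rbpj, TGGGAA, was looked for on both strands of the promoters of these genes, as RefSeq gives them for GRCr8, from 250 bases before to 50 bases after the start of transcription. Of the 10 genes, 8 matched the promoter table by symbol and 4 of them held the core, in Hes1, Dll1, Notch4 and Notch3. The windows of Notch1, Notch2, Jag1 and Jag2 did not hold these letters. The 4 sequences are shown because the genes are members of the pathway that this factor serves, with each core in capitals. They lie at chr11:84212996-84213295, chr1:64993225-64993524, chr20:4189023-4189322 and chr7:11834536-11834835, all on the minus strand, and are written 5′ to 3′ on the strand of the gene. A core read on the opposite strand appears as TTCCCA.
Hes1: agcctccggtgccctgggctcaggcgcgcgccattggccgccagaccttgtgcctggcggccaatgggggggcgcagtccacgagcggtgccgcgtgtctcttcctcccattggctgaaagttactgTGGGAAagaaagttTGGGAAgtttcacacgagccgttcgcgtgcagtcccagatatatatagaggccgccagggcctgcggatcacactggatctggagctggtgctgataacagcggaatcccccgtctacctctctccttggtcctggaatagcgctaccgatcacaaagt
Dll1: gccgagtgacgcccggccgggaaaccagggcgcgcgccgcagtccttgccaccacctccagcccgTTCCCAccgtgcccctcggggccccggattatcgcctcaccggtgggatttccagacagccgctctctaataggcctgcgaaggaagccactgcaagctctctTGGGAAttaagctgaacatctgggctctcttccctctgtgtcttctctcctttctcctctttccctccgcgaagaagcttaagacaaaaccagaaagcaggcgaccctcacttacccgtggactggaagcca
Notch4: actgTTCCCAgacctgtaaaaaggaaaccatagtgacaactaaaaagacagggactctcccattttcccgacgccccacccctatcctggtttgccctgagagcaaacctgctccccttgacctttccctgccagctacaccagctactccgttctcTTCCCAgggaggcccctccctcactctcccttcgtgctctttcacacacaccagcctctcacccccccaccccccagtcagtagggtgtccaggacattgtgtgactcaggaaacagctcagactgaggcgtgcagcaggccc
Notch3: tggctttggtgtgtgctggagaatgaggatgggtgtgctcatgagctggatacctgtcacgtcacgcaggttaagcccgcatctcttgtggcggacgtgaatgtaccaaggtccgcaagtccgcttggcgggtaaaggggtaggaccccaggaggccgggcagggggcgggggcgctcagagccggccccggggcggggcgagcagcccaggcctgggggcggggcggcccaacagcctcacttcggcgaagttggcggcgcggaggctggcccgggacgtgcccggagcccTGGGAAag
In Hes1 the cores lay from -123 to -118 and from -109 to -104 relative to the start, in the same orientation and close together. Dll1 carried one core in each orientation, Notch4 a pair in the opposite orientation, and Notch3 one just after the start. The core was present in 25.7% of the 33469 promoters of the table, and the longer GTGGGAA, which contains it and was found in Hes1 and Dll1, in 6.29%. A match is a description of the letters and was not tested as a binding site.

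Against healthy LSECs, 9 of the 10 genes were lower and 0 higher after acute injury, and 8 were lower and 0 higher in fibrosis. At cirrhosis 4 were lower and 2 higher. A gene was called where limma-voom gave a fold above 1.5 with p below 0.05 before adjustment. By this rule 74.1% of all genes tested were called after acute injury (38.3% lower and 35.8% higher), 71.2% in fibrosis (35.4% lower and 35.8% higher) and 54.5% at cirrhosis (25.7% lower and 28.8% higher), so that a single call says little in these comparisons and sizes and overlaps are given throughout. When limma's p-values were adjusted after Benjamini and Hochberg, 9, 8 and 6 of the 10 genes were called, beside 73.4%, 70.2% and 51.8% of all genes. The libraries of the groups did not overlap for 8, 7 and 2 of the 10 genes, beside 60% of all genes after acute injury, 58.7% in fibrosis and 27.2% at cirrhosis. The median log2 fold change of the 10 genes was -3.38 after acute injury, -3.15 in fibrosis and -0.13 at cirrhosis, beside -0.09, -0.03 and 0.07 over all genes tested. Scaling by library totals alone moved the median of all genes by 0.41, 0.40 and 0.34 in these comparisons, and moved the share of calls that were higher from 50.3% to 60.7% in fibrosis and from 52.8% to 71.2% at cirrhosis. With upper-quartile factors that share was 60.8% at cirrhosis.

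**Figure D1:**
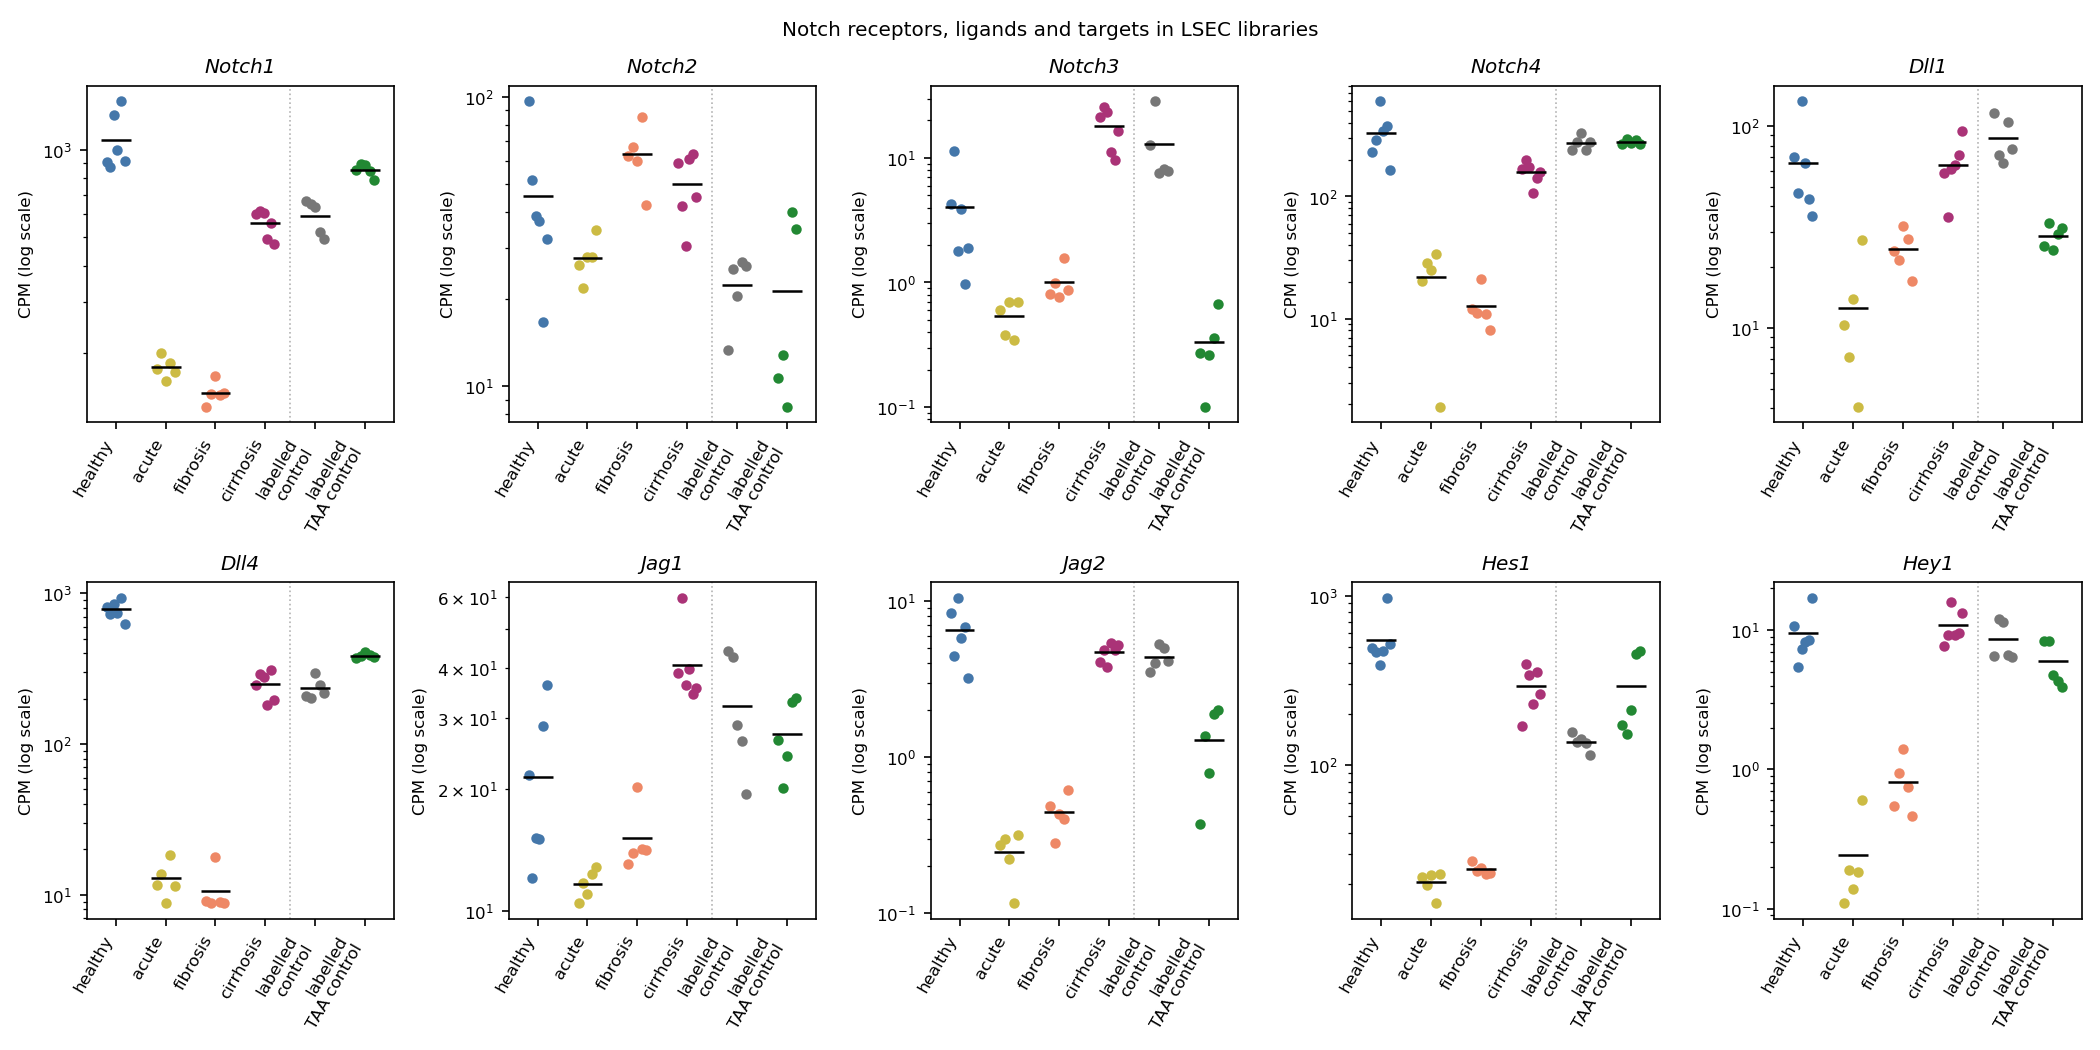
CPM of each gene in every library on a log axis, 1 panel per gene; points are libraries and black bars group means, with n = 6 for healthy and cirrhosis and n = 5 for every other group, and the dotted line parts the CCl4 libraries from the TAA experiment, which was scaled separately. For Dll4 the acute and fibrosis libraries lie between 8.77 and 18.5 CPM, far below the healthy ones from 630.3 to 936 CPM, while those of Notch2 overlap with them.

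Among the receptors, Notch1 (ENSRNOG00000019322), which is broadly expressed in endothelium, was at its lowest in acute injury and fibrosis. In healthy LSECs it ran from 871 to 1472 CPM with a median of 956 CPM. The acute libraries had 176, 199, 159.8, 185 and 172 CPM. The fibrosis libraries had 130.3, 144, 167, 143 and 146 CPM. All 10 of these libraries were below every healthy one. In cirrhosis Notch1 ran from 476 to 617 CPM with a median of 582 CPM, above all acute and fibrosis libraries and below all healthy ones. Notch1 was 5.81-fold below healthy LSECs after acute injury (log2 fold change -2.54, SE 0.154, adjusted p = 3.32e-08), 6.94-fold lower in fibrosis (-2.80, SE 0.151, adjusted p = 1.79e-08) and 1.89-fold lower at cirrhosis (-0.92, SE 0.159, adjusted p = 0.000523). With library totals alone the difference at cirrhosis was -0.57 on the log2 scale, which is under the fold threshold.

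Notch4 (ENSRNOG00000000442), a receptor found mainly in endothelium, fell further. Healthy libraries ran from 163 to 601 CPM with a median of 314 CPM. After acute injury it was at 20.4, 28.5, 24.996, 33.9 and 1.89 CPM. Replicate 8 held the lowest of these values, 60 counts where the other acute libraries had 748 or more. In fibrosis the values were 11.9, 11.2, 21.1, 11.0 and 8.11 CPM, and no acute or fibrosis library reached the healthy range. The log2 fold change against healthy was -4.21 (SE 0.609, adjusted p = 4.66e-05) after acute injury, or -3.49 without replicate 8, and -4.61 (SE 0.325, adjusted p = 1.49e-07) in fibrosis. Cirrhotic libraries ran from 106 to 199 CPM with a median of 163 CPM. They overlapped with the healthy range, with a log2 fold change of -0.98 (SE 0.275, adjusted p = 0.00869).

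Notch3 (ENSRNOG00000004346), the receptor known from smooth muscle cells and pericytes, was lower than in healthy LSECs at the early stages and higher at cirrhosis. Healthy libraries ran from 0.965 to 11.5 CPM with a median of 2.89 CPM. The acute libraries had 0.599, 0.381, 0.694, 0.345 and 0.695 CPM, all below the healthy ones. In fibrosis Notch3 was at 0.803, 0.998, 0.765, 1.58 and 0.875 CPM, which overlapped with the lowest healthy libraries. In cirrhosis it ran from 9.67 to 25.6 CPM with a median of 18.8 CPM. Only the highest healthy library, replicate 2, reached into the cirrhotic range. Notch3 was 5.80-fold higher in cirrhotic than in healthy LSECs (log2 fold change 2.54, SE 0.483, adjusted p = 0.000929). After acute injury the log2 fold change was -2.43 (SE 0.642, adjusted p = 0.00398) and in fibrosis -1.50 (SE 0.602, adjusted p = 0.0385). The call in fibrosis was lost with library totals alone (-1.11) and without fibrosis replicate 12 (-1.42), 15 (-1.42) or 17 (-1.46). Cirrhotic LSECs had 16.98-fold more Notch3 than fibrotic ones (adjusted p = 1.7e-05), and the libraries did not overlap.

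Markers of stellate and mural cells, the fibre-forming cells around the sinusoid and the cells of vessel walls, moved with Notch3 at cirrhosis. Of 9 such genes, 7 were higher in cirrhosis than in healthy LSECs and 0 lower, and all 9 were detected in every library. Their summed CPM ran from 284 to 785 in healthy and from 626 to 1926 in cirrhotic libraries. Cirrhotic replicate 2 had both the highest sum and the highest Notch3, and replicate 5 the lowest of both. Among healthy libraries, replicate 2 had the highest Notch3 with a sum of 451 CPM, and replicate 6 the highest sum with 1.89 CPM of Notch3. In acute injury 6 of the 9 genes were lower and 1 higher than in healthy LSECs, and the summed CPM ran from 1315 to 2132, of which Reln alone had a mean of 1678 CPM, while the mean of Pdgfrb was 1.06 CPM and that of Rgs5 0.133 CPM. In fibrosis 4 of the 9 genes were higher and 3 lower than in healthy LSECs, and the summed CPM ran from 1301 to 1746. The means of Col1a1, Col3a1, Dcn and Rgs5 in fibrosis were 47.5, 22.8, 1.90 and 0.797 CPM, a small part of these sums. The part of these cells in the level of Notch3 was not tested.

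Notch2 (ENSRNOG00000018835), the receptor tied to bile duct formation, did not follow the other receptors. Healthy libraries ran from 16.6 to 96.3 CPM with a median of 38.0 CPM, a spread that covered every acute, fibrosis and cirrhotic library. The acute libraries had 26.2, 21.9, 27.9, 28.0 and 34.5 CPM. The fibrosis libraries had 62.3, 67.1, 60.04, 85.1 and 42.1 CPM, each above every acute library. Cirrhotic libraries ran from 30.5 to 63.1 CPM with a median of 51.9 CPM. Against healthy LSECs no call was made at any stage with the settings used throughout, but several alternatives made one. The log2 fold changes and their 95% intervals were -0.50 (-1.28 to 0.29) after acute injury, 0.71 (-0.09 to 1.51) in fibrosis and 0.30 (-0.44 to 1.05) at cirrhosis. Without healthy replicate 5 the acute value was called at -0.76, and without healthy replicate 1 or fibrosis replicate 17 the fibrosis value was called at 0.97 or 0.86. Library quality weights gave a call of -0.85 after acute injury, and in fibrosis library totals alone gave 1.10 and 1 fit over the 22 libraries 0.64, both called.

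**Figure D2:**
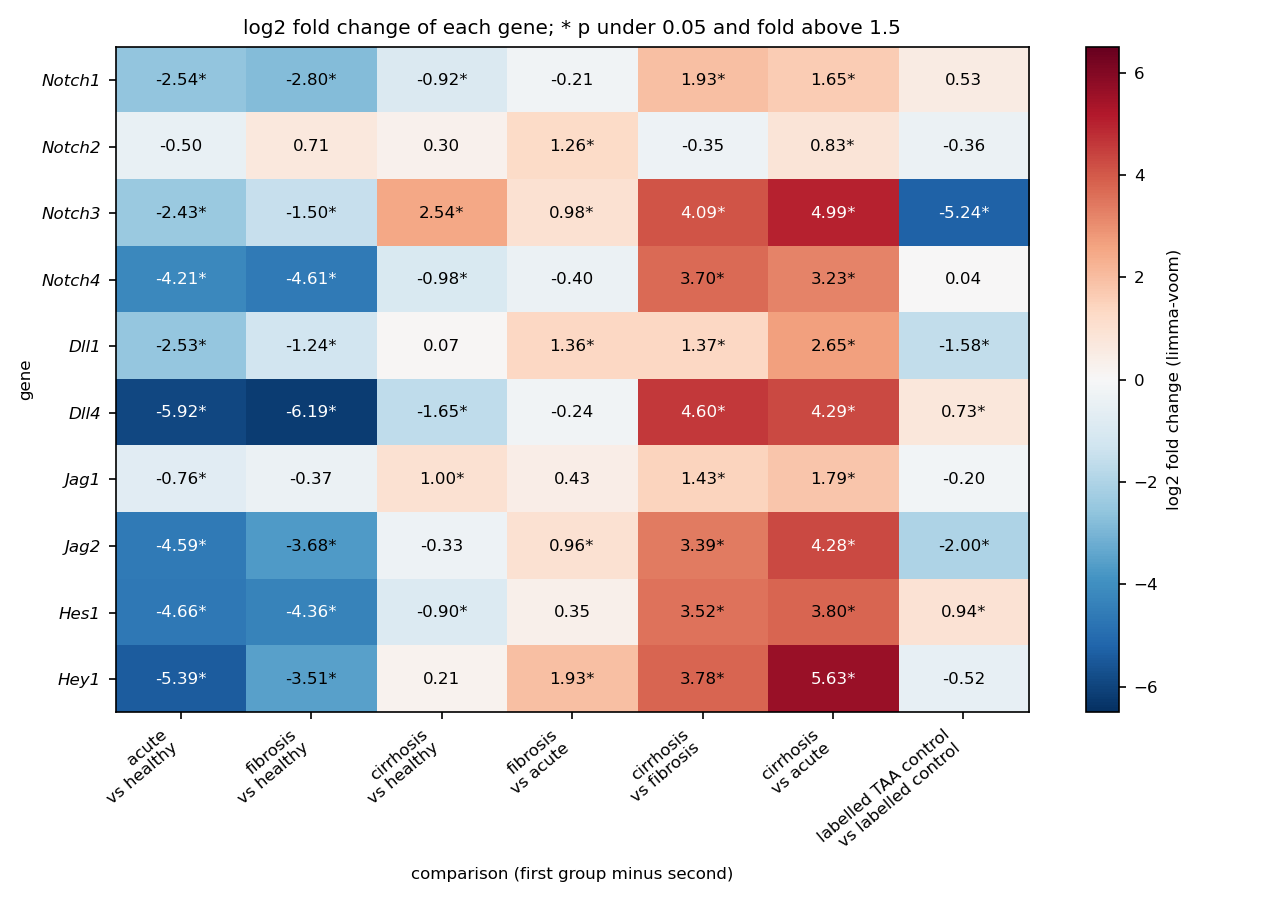
Log2 fold change of each gene (rows) in each comparison (columns, first group minus second) from limma-voom, with the value printed and colour from blue (lower) to red (higher); a star marks p below 0.05 before adjustment with a fold above 1.5. In the comparisons of acute injury and of fibrosis with healthy LSECs the called values run from -0.76 to -6.19, and in those of cirrhosis with fibrosis and with acute injury from 0.83 to 5.63.

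Of the ligands, Dll4 (ENSRNOG00000014011), the Delta-like ligand of arterial and sprouting endothelium, had the largest fall of the 10 genes after acute injury and in fibrosis. Healthy libraries ran from 630.3 to 936 CPM with a median of 774 CPM. After acute injury Dll4 was at 11.7, 13.7, 8.86, 18.5 and 11.5 CPM. In fibrosis it was at 9.09, 8.77, 17.8, 8.89 and 8.84 CPM, of which only replicate 15 stood apart. Dll4 was 60.4-fold lower after acute injury (log2 fold change -5.92, SE 0.185, adjusted p = 1.23e-09) and 72.8-fold lower in fibrosis (-6.19, SE 0.192, adjusted p = 1.26e-09). Cirrhotic libraries ran from 183 to 310.3 CPM with a median of 262 CPM, between the ranges of the earlier stages and of healthy LSECs and overlapping with neither. At cirrhosis Dll4 was still 3.13-fold lower than in healthy LSECs (log2 fold change -1.65, SE 0.167, adjusted p = 5.79e-05). Of the 10 genes, Dll4 and Notch1 alone had cirrhotic and healthy ranges apart from each other.

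Dll1 (ENSRNOG00000059984), the other Delta-like ligand measured, was lower at the early stages and back in the healthy range at cirrhosis. Healthy libraries ran from 35.7 to 133 CPM with a median of 56.0 CPM. The acute libraries had 10.3, 7.14, 13.9, 4.05 and 27.4 CPM, the highest in replicate 8. Dll1 was at 24.0, 21.7, 32.0, 27.5 and 17.1 CPM in fibrosis, and from 35.6 to 94.1 CPM in cirrhosis with a median of 62.7 CPM. The acute and fibrosis libraries lay below all healthy ones. The log2 fold change was -2.53 (SE 0.453, adjusted p = 0.000258) after acute injury and -1.24 (SE 0.308, adjusted p = 0.00301) in fibrosis. At cirrhosis it was 0.07 with a 95% interval from -0.59 to 0.73, and its sign depended on the method.

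Jag1 (ENSRNOG00000007443), the Jagged ligand known from bile duct formation, moved least of the ligands at the early stages and was the only one called higher at cirrhosis. Healthy libraries ran from 12.1 to 36.3 CPM with a median of 18.4 CPM. It was at 10.4, 11.7, 11.0, 12.3 and 12.8 CPM after acute injury and at 13.1, 13.9, 20.3, 14.2 and 14.1 CPM in fibrosis. The acute values lay near the lower end of the healthy range or below it. Those in fibrosis lay inside that range, and only the highest of them was above the healthy median. The cirrhotic libraries ran from 34.4 to 59.7 CPM with a median of 37.5 CPM, and only the highest healthy library, replicate 6, reached into them. Jag1 was 2.0-fold higher in cirrhosis than in healthy LSECs (log2 fold change 1.0, SE 0.251, adjusted p = 0.00475). Its fall after acute injury (-0.76, SE 0.280, adjusted p = 0.0252) was not called without healthy replicate 1 (-0.67) or 6 (-0.48), with library totals alone (-0.34), with library quality weights (-0.58) or with the replicate number as a block (-0.46), and in fibrosis no call was made (-0.37, 95% interval -0.98 to 0.25). Markers of bile duct cells were higher at cirrhosis in 4 of 6 tested genes and lower in 0, with summed CPM of 7.34 to 33.8 against 1.97 to 27.0 in healthy libraries. After acute injury 1 of 4 tested genes of this list was higher and 2 were lower than in healthy LSECs. The sums there ran from 35.9 to 106 CPM, with a mean of 79.5 CPM for Spp1 alone. In fibrosis 2 of 4 were higher and 2 lower, and the sums ran from 7.84 to 108 CPM. Of these markers Sox9, Krt19 and Cftr were at 0 in some libraries. Their part in the level of Jag1 or Notch2 was not tested.

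Jag2 (ENSRNOG00000013927), the second Jagged ligand, had few counts at the early stages, from 5 to 11 per acute library and from 9 to 21 per fibrosis library. That is 0.115 to 0.316 CPM and 0.281 to 0.612 CPM, where healthy libraries had 3.20 to 10.5 CPM. Jag2 was 24.1-fold lower after acute injury (log2 fold change -4.59, SE 0.455, adjusted p = 1.98e-06) and 12.8-fold lower in fibrosis (-3.68, SE 0.410, adjusted p = 6.49e-06). In cirrhosis it ran from 3.78 to 5.40 CPM, inside the healthy range, and the log2 fold change of -0.33 was not called (95% interval -0.91 to 0.25).

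The targets fell with Dll4 and Notch4 at the early stages. Hes1 (ENSRNOG00000001720), a repressor that Notch and other signals induce, ran from 388 to 972 CPM in healthy LSECs with a median of 484 CPM. The next healthy library below replicate 5, which held the maximum, had 516 CPM. Hes1 was at 22.1, 19.8, 22.7, 15.4 and 23.0 CPM after acute injury. In fibrosis it was at 27.2, 23.9, 24.9, 23.0 and 23.2 CPM. The early stages thus lay within 15.4 to 27.2 CPM. Hes1 was 25.3-fold lower than in healthy LSECs after acute injury (log2 fold change -4.66, SE 0.224, adjusted p = 6.22e-09) and 20.6-fold lower in fibrosis (-4.36, SE 0.206, adjusted p = 7.78e-09). Cirrhotic libraries ran from 170.1 to 395 CPM with a median of 302 CPM, and the highest of them passed the lowest healthy one. At cirrhosis the log2 fold change was -0.90 (SE 0.244, adjusted p = 0.00752), and with library totals alone it was -0.55 and not called.

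Hey1 (ENSRNOG00000011593), a repressor of the same family that marks Notch activity in endothelium, had a healthy range from 5.44 to 17.1 CPM with a median of 8.43 CPM. After acute injury it was at 0.109, 0.191, 0.139, 0.184 and 0.5999 CPM, which is 4 to 19 counts per library. Replicate 8 was the highest of these. In fibrosis it was at 0.545, 0.936, 1.40, 0.746 and 0.467 CPM. Acute and fibrosis libraries were all below the healthy ones, 42.0-fold after acute injury (log2 fold change -5.39, SE 0.508, adjusted p = 1.28e-06) and 11.4-fold in fibrosis (-3.51, SE 0.411, adjusted p = 9.88e-06). Cirrhotic libraries ran from 7.74 to 15.9 CPM with a median of 9.46 CPM, and the log2 fold change against healthy of 0.21 was not called (95% interval -0.34 to 0.77).

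Immediate-early genes, which respond within minutes to stress and to tissue digestion, moved with Hes1. All 10 genes of that list, among them Fos, Egr1 and Zfp36, were lower than in healthy LSECs after acute injury and in fibrosis, and 6 of 10 at cirrhosis. Their summed CPM ran from 40496 to 69467 in healthy libraries, from 913 to 2385 after acute injury, from 1929 to 3139 in fibrosis and from 18915 to 42066 in cirrhosis. Healthy replicate 5 had the highest sum and the highest Hes1, and so had replicate 2 among cirrhotic libraries. Other libraries did not follow this order. Healthy replicate 6 had the lowest healthy sum with 516 CPM of Hes1. Cirrhotic replicate 1 had the lowest cirrhotic Hes1, 170.1 CPM, with a sum of 30013 CPM. Their part in the level of Hes1 and of the other genes was not tested. Further lists moved between stages too. Of 6 hepatocyte markers 6 were lower after acute injury, 5 in fibrosis and 2 at cirrhosis, with summed CPM of 1273 to 26999 in healthy, 143 to 907 in acute, 1272 to 5010 in fibrosis and 2878 to 14116 in cirrhotic libraries. All 8 macrophage markers were lower at both early stages and 1 was higher at cirrhosis. Of 4 lymphocyte markers tested early 4 and 2 were lower, and at cirrhosis 2 of 6 were higher and 1 lower. The 1 neutrophil marker tested early was lower, and at cirrhosis 3 of 4 were higher and 1 lower. With adjusted p-values 0 macrophage, 0 lymphocyte, 1 hepatocyte and 3 neutrophil markers were called at cirrhosis. Of 7 markers of endothelium in general 5 were lower and 1 higher after acute injury, 5 lower and 0 higher in fibrosis, and 3 lower and 1 higher at cirrhosis. Their part in the results was not tested either.

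**Figure D3:**
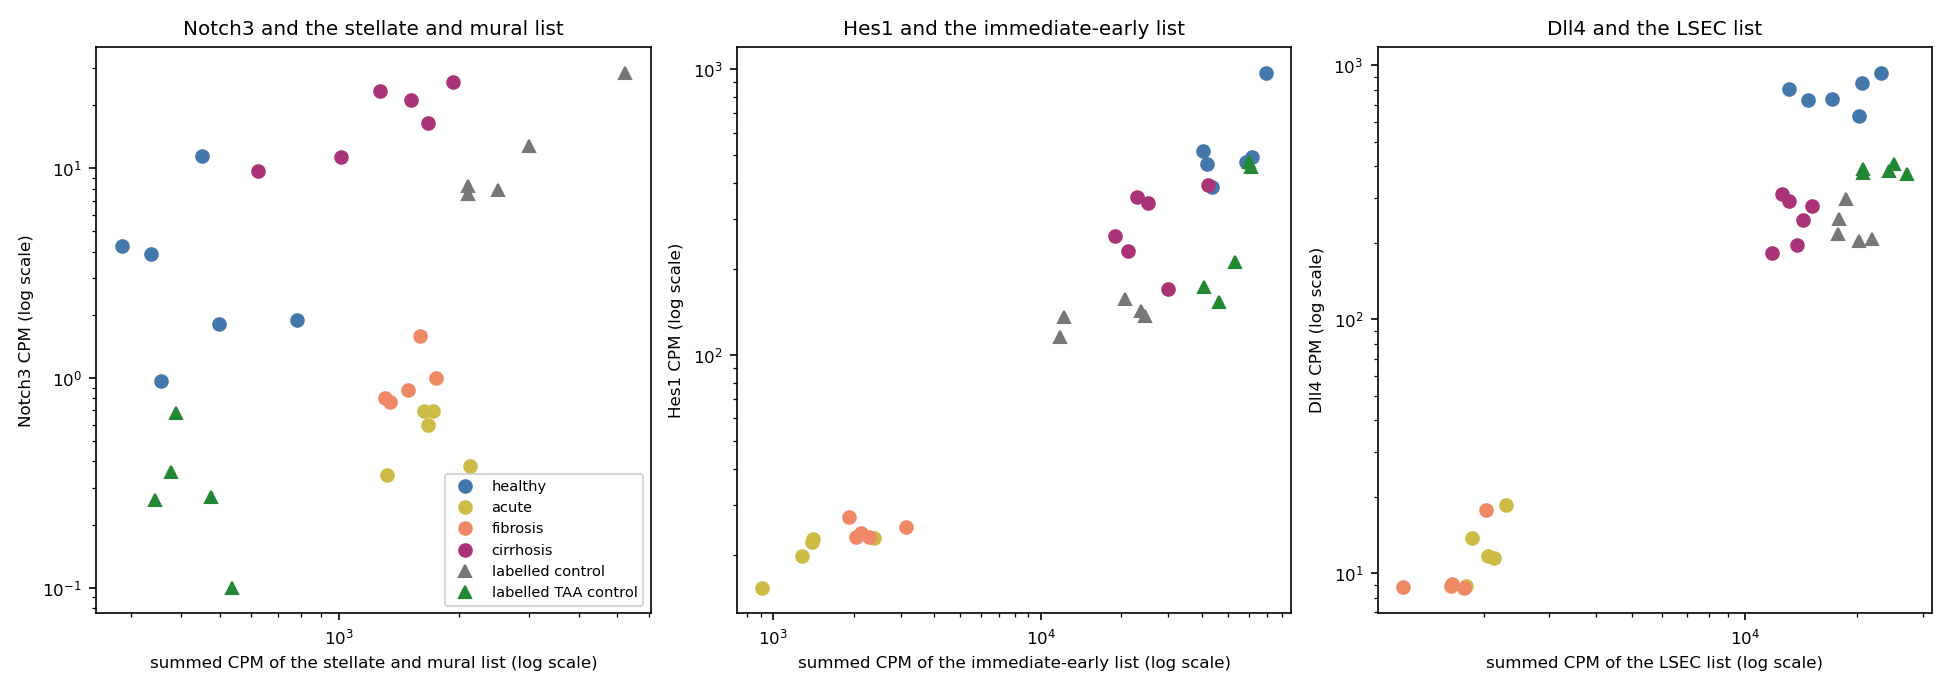
Level of a gene against the summed level of a marker list in each of the 32 libraries, both in CPM on log axes: Notch3 against 9 stellate and mural genes, Hes1 against 10 immediate-early genes and Dll4 against 8 LSEC genes; circles are CCl4 libraries and triangles those of the TAA experiment, scaled separately. Acute and fibrosis libraries lie apart from the healthy and cirrhotic ones in the panels of Hes1 and Dll4. In that of Notch3 they combine sums of 1301 to 2132 CPM with Notch3 of 0.345 to 1.58 CPM. The sums of the acute libraries are mostly Reln.

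Between the stages of injury, 5 of the 10 genes were higher in fibrosis than after acute injury and 0 lower, where 15.7% of all genes tested were called 14.3% higher and 1.39% lower. These were Notch2, Notch3, Dll1, Jag2 and Hey1. Notch2 was 2.39-fold higher (log2 fold change 1.26, SE 0.185, adjusted p = 0.00403) and Hey1 3.81-fold (1.93, SE 0.455, adjusted p = 0.0164). Markers of other cells were higher in fibrosis too, 7 of 9 stellate and mural genes (median log2 fold change 2.97), 6 of 6 hepatocyte genes (2.93) and 6 of 10 immediate-early genes (0.89), with 0 lower in each list, and their part was not tested. With adjusted p-values 4 were called, beside 11% of all genes, and libraries did not overlap in Notch2, Notch3, Jag1 and Hes1, beside 17.2%. Notch3 and Jag2 rose by 0.98 and 0.96 on the log2 scale (adjusted p = 0.0412 and 0.0661), at levels under 2 CPM, and Dll1 by 1.36 (adjusted p = 0.0345). In 1 limma fit over the 22 CCl4 libraries Notch3 (0.90, adjusted p = 0.473) and Jag2 (0.88, adjusted p = 0.298) were not called. Dll4 and Notch4 were not called, with log2 fold changes of -0.24 (95% interval -0.76 to 0.28) and -0.40 (-1.97 to 1.17). Without acute replicate 8 the value of Notch4 was -1.09 and was called lower in fibrosis.

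From fibrosis to cirrhosis 9 of the 10 genes rose, and no fibrosis library overlapped with a cirrhotic one in any of the 9. Of all genes tested, 64.2% were called, 34.5% higher and 29.7% lower, 63.8% were called with adjusted p-values and 63.3% did not overlap. Dll4 was 24.3-fold higher in cirrhosis (log2 fold change 4.6, SE 0.210, adjusted p = 2.32e-09). Notch3 followed with the 16.98-fold rise given above, then Hey1 and Notch4 with 13.7-fold and 12.95-fold (adjusted p = 1.58e-06 and 1.98e-08), and Hes1 and Jag2 with 11.5-fold and 10.5-fold (adjusted p = 9.6e-09 and 6.85e-08). Notch1, Jag1 and Dll1 were 3.82-fold, 2.69-fold and 2.58-fold higher (adjusted p = 3.25e-09, 6.31e-06 and 0.000152). Notch2 was the exception, with a log2 fold change of -0.35 (95% interval -0.81 to 0.11). The median log2 fold change of the 10 genes was 3.46. All 10 were higher in cirrhosis than after acute injury, where 69.7% of all genes tested were called (37.8% higher and 31.9% lower), 69.3% with adjusted p-values, and 65.9% did not overlap. The smallest of these rises was in Notch2, 1.78-fold (adjusted p = 0.00153), whose libraries still overlapped, and the largest in Hey1, 49.7-fold (adjusted p = 1.69e-07). These comparisons share groups with those against healthy LSECs.

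In order of their mean levels, Notch1, Notch4, Dll4 and Hes1 had the same sequence of stages, with healthy above cirrhosis and cirrhosis above both early stages. Acute injury and fibrosis did not differ beyond the threshold for these 4 genes. For Notch3 and Jag1 the order was cirrhosis, healthy, fibrosis and acute injury, from high to low. Neither step from healthy to fibrosis nor from fibrosis to acute injury was called for Jag1. Notch2 had fibrosis, cirrhosis, healthy and acute injury in this order, and of these neighbours no pair was called. For Dll1, Jag2 and Hey1 cirrhosis and healthy LSECs did not differ beyond their spread. Mean levels of these genes were higher in fibrosis than in acute injury, though the libraries overlapped, and the call of Jag2 was lost with adjusted p-values.

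The rest of the pathway was read from 8 lists with 52 genes, of which 50 were listed. Rbpj had 2 identifiers, which makes 51 entries, and Aph1b and Maml3 were not found under these symbols. The 4 further ligands, Dll3 among them, had too few counts to be tested. After acute injury 36 of 43 entries tested were called, 11 higher and 25 lower, in fibrosis 39 of 44, 13 higher and 26 lower, and at cirrhosis 25 of 44, 13 higher and 12 lower. Their shares stand against the 74.1%, 71.2% and 54.5% of all genes called.

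Enzymes that add sugars to the receptors were mostly lower, with 4 of 5 lower and 1 higher after acute injury and 4 lower and 0 higher at cirrhosis. Lfng and Rfng, Fringe enzymes that tune which ligand a receptor answers to, fell by 2.91 and 2.30 on the log2 scale after acute injury (adjusted p = 1.54e-05 and 1.24e-05). At cirrhosis Rfng and Mfng fell by 1.68 and 1.42 (adjusted p = 0.000212 and 0.000105). Among ubiquitin ligases that pull ligands into the cell, 1 was higher and 2 lower at both stages. Mib1 rose by 2.15 after acute injury (adjusted p = 0.000176), while Neurl1b fell from a mean of 16.7 to 0.735 CPM (log2 fold change -4.40, adjusted p = 6.02e-08). At cirrhosis Neurl1b and Mib2 were lower by -1.75 and -1.46 (adjusted p = 9.33e-05 and 0.000139).

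Of 7 genes of receptor cleavage tested, 2 were higher and 4 lower both after acute injury and at cirrhosis. Adam10, the protease that makes the first cut, was higher by 1.72 and 1.44 on the log2 scale (adjusted p = 0.00115 and 0.00429). Psen2, a catalytic subunit of gamma-secretase, was lower by -1.45 and -1.63 (adjusted p = 0.000314 and 0.000318). In the nuclear complex 4 of 8 entries were higher and 2 lower after acute injury, 5 higher and 2 lower in fibrosis, and 4 higher and 0 lower at cirrhosis, with Rbpj counted under both of its identifiers. Rbpj (ENSRNOG00000046327) rose from a mean of 42.8 CPM in healthy LSECs to 121 CPM after acute injury (log2 fold change 1.58, adjusted p = 2.53e-05) and to 99.9 CPM at cirrhosis (1.24, adjusted p = 0.000703). Its second identifier (ENSRNOG00000007797) had means of 0.979, 1.31 and 2.23 CPM in these groups, and reads shared between both could have been divided by the counting. Snw1, a cofactor of Rbpj that also serves in splicing, rose by 1.82 after acute injury (adjusted p = 1.03e-06).

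**Figure D4:**
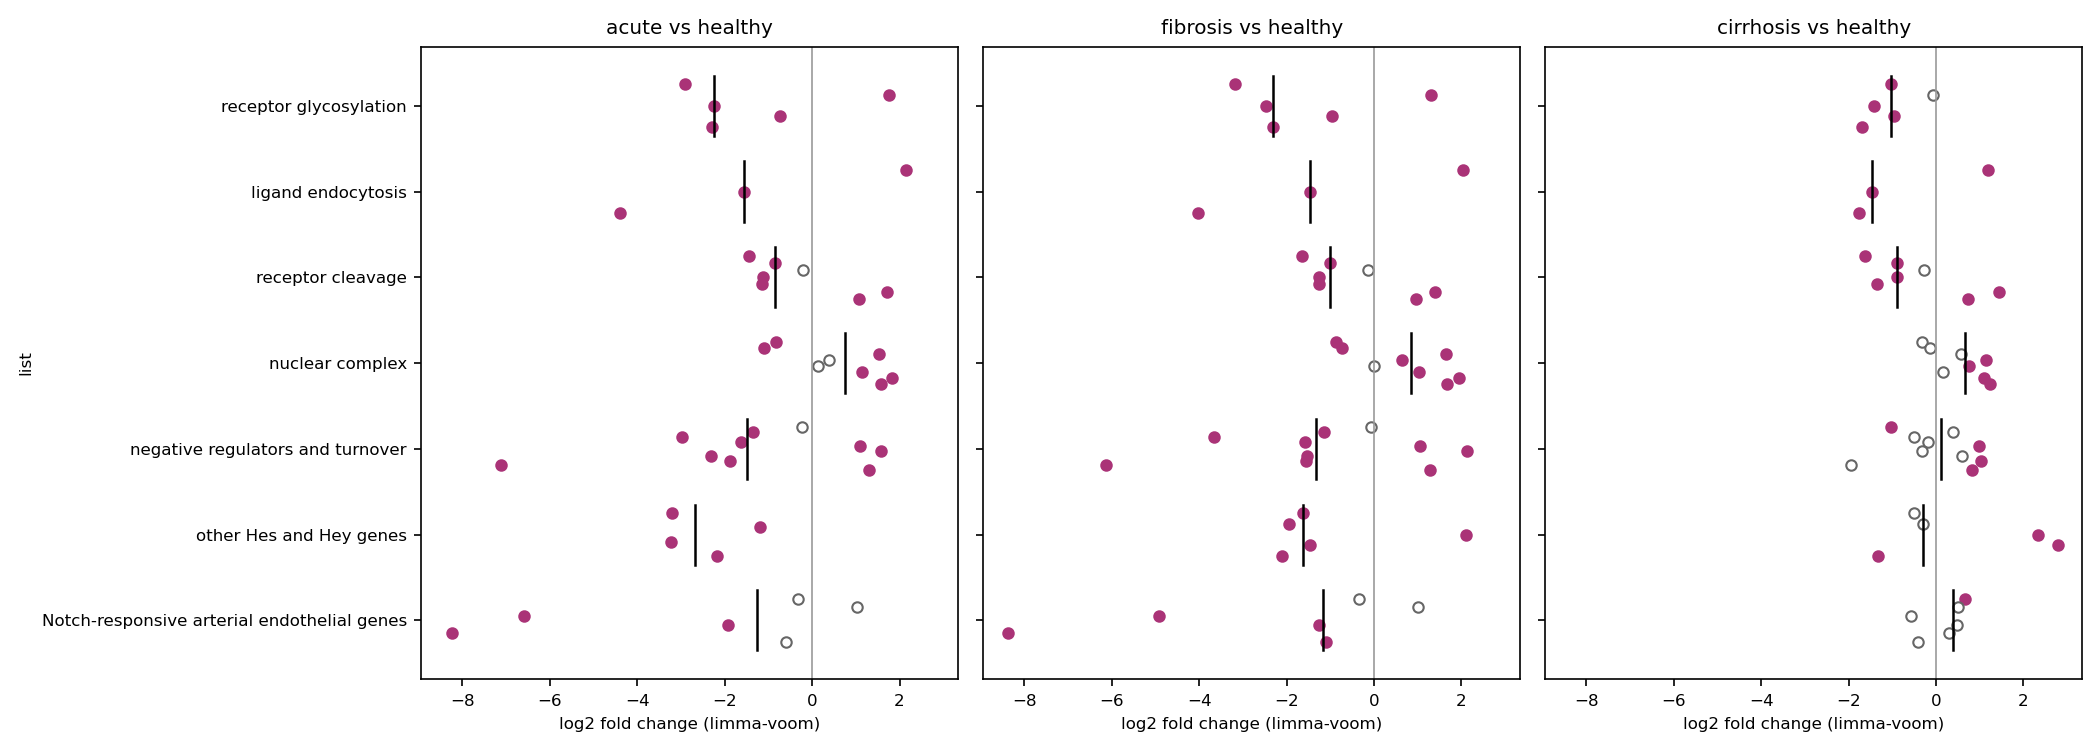
Log2 fold change (limma-voom) of each tested gene of 7 pathway lists against healthy LSECs, 1 panel per stage; filled points were called (p under 0.05 and fold-change above 1.5), open points were not, black lines are list medians and the grey line marks no change. The nuclear complex has medians of 0.76, 0.83 and 0.66, and the enzymes of receptor glycosylation -2.24, -2.30 and -1.04, after acute injury, in fibrosis and at cirrhosis.

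Among 10 negative regulators, 3 were higher and 6 lower after acute injury, and 3 higher and 1 lower at cirrhosis. Nrarp, a feedback inhibitor that Notch itself induces, fell from a mean of 157 to 18.7 CPM after acute injury (log2 fold change -2.98, adjusted p = 6.84e-07) and was not called at cirrhosis (-0.51, adjusted p = 0.0705). Dtx1 had 19 to 1594 counts in healthy libraries and 0 to 2 in acute ones. At cirrhosis Dtx2 was lower by -1.03 (adjusted p = 0.00441) and Dtx3l higher by 1.02 (adjusted p = 0.000826).

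Of the other Hes and Hey genes, 4 of 4 tested were lower after acute injury, and 2 of 5 higher and 1 lower at cirrhosis. Heyl, known from the smooth muscle of vessels, went from a mean of 0.973 CPM in healthy LSECs to 0.0875 CPM after acute injury (log2 fold change -3.22, adjusted p = 3.4e-05) and to 6.58 CPM at cirrhosis (2.78, adjusted p = 0.000114). Hes7 had 0 to 5 counts per acute library and 8 to 23 per healthy one (log2 fold change -3.20, adjusted p = 0.000232). Hey2 was 2.33 higher on the log2 scale at cirrhosis (adjusted p = 0.000304), from 2 to 9 counts in healthy libraries to 25 to 52. Arterial genes that respond to Notch had 3 of 6 lower after acute injury and 1 higher at cirrhosis. Gja4, a connexin of arterial endothelium, fell from a mean of 155 to 1.87 CPM after acute injury (log2 fold change -6.59, adjusted p = 1.03e-07). Gja5, another arterial connexin, had 188 to 470 counts in healthy libraries and 0 to 3 in acute ones. Unc5b, a guidance receptor, was 0.66 higher at cirrhosis (adjusted p = 0.0439).

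In the TAA experiment 5 of the 10 genes were called between the labels, where 29.4% of all genes tested were called (13.5% higher and 15.9% lower under the label TAA control), 27.6% with adjusted p-values, and 35.4% did not overlap. Dll4 and Hes1 were higher in the group labelled TAA control, and Notch3, Dll1 and Jag2 in the group labelled control. Marker lists differed between the labels as well. Under TAA control 5 of 5 bile duct markers tested were lower (summed CPM 1.61 to 3.32 against 5.39 to 10.9), 5 of 6 hepatocyte markers were lower (633 to 1419 against 2184 to 5435) and 3 of 8 LSEC markers were higher and 0 lower (20633 to 27103 against 17775 to 21847). Their part in these differences was not tested. Notch3 was at 12.7, 28.5, 7.55, 8.20 and 7.87 CPM in the libraries labelled control. In those labelled TAA control it was at 0.272, 0.100, 0.263, 0.355 and 0.677 CPM, which is 3 to 17 counts per library. The groups lay far apart, with a log2 difference (TAA control minus control) of -5.24 (SE 0.882, adjusted p = 0.000745). The stellate and mural genes moved with it, 8 of 9 being lower in the group labelled TAA control, and their summed CPM ran from 344 to 537 there and from 2106 to 5233 in the group labelled control. Replicate 2 of the latter had both the highest Notch3 and the highest sum. Heyl showed 0.241 and 6.47 CPM as group means, lower by -4.73 under the label TAA control (adjusted p = 2.55e-05). The part of these cells was not tested.

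Dll4 was at 208, 203, 298, 247 and 217 CPM under the label control and at 373, 384, 408, 389.9 and 377 CPM under TAA control, without overlap (log2 difference 0.73, SE 0.104, adjusted p = 0.000279). Dll1 lay at 65.8 to 116 CPM under control and at 24.3 to 33.3 CPM under TAA control (-1.58, SE 0.165, adjusted p = 5.16e-05). Jag2 lay at 3.49 to 5.30 CPM and at 0.373 to 1.99 CPM in the same order (-2.0, SE 0.358, adjusted p = 0.00106). These 3 ligands thus separated the labels, in different directions. Notch1 also did so, with 494 to 667 CPM against 790.3 to 898 CPM, but its difference of 0.53 (SE 0.097, adjusted p = 0.0012) stayed under the fold threshold. Notch4, Jag1 and Hey1 were not called, with log2 differences of 0.04 (95% interval -0.16 to 0.25), -0.20 (-0.70 to 0.31) and -0.52 (-1.13 to 0.10). Without replicate 10 or replicate 12 of the group labelled TAA control, Hey1 was called at -0.66 each time.

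Hes1 under the label TAA control depended on the close pair of libraries. It was at 157, 138, 143, 136 and 116 CPM under control and at 173, 154, 212, 456 and 472 CPM under TAA control, the last 2 being replicates 14 and 15. The log2 difference of 0.94 (SE 0.301, adjusted p = 0.0239) became 0.38 and was no longer called when both were left out, a choice made after seeing the data. Notch2 was at 10.7, 12.8 and 8.49 CPM in replicates 10, 12 and 13 and at 39.8 and 34.8 CPM in replicates 14 and 15, against 13.4 to 26.9 CPM under control. Its log2 difference of -0.36 (95% interval -1.27 to 0.55) became -1.04 and was called without both replicates. Summed immediate-early CPM ran from 11782 to 24432 under control and from 40610 to 60880 under TAA control, and all 10 genes of that list were higher under TAA control. Of the other pathway genes, 15 of 44 were called between the labels, 4 higher and 11 lower under TAA control. Of all genes tested 29.4% were called, 13.5% higher and 15.9% lower.

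Across the 22 CCl4 libraries, the genes whose log2 CPM was most like that of each member were sought among 11025 genes with a symbol. The closest to Notch1 and to Dll4 was the same gene, Caskin2, with Pearson's r of 0.991 and 0.993. Hes1 was closest to Mettl24 (0.993) and to Klf2 (0.987), a transcription factor induced by blood flow. Hey1 was closest to Sdr9c7 (0.986), Jag2 to Fam171a2 (0.988), Notch4 to Tmem94 (0.973) and Notch3 to Plxdc2 (0.958). Dll1 was closest to Kcnd1 (0.95) and next to Timp1 (0.945), an inhibitor of matrix proteases, and Jag1 to Zmiz1 (0.94) and Mecom (0.94). Notch2 had no gene above 0.847, the value of Sdc1. These values are descriptions, as all libraries of a stage share the difference between stages. Within stages the r of Notch1 and Dll4 with Caskin2 was 0.618 and 0.523. Among the 10 genes themselves, Notch1 and Dll4 had an r of 0.989 over the 22 libraries and 0.632 within stages. Dll4 and Hes1 had 0.979 and 0.167, so that the likeness of this ligand and this target lay mostly between the stages.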

How the data were processed

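RNA of LSECs was sequenced from poly(A) strand-specific libraries. The authors mapped reads to Rnor_6.0 with STAR and deposited RSEM expected counts for 32623 genes, 1 table per library, without normalization. Versions are not given in the sources used here. RSEM divides reads that match several genes by its own estimates.

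Before testing, the expected counts were made whole by rounding. Genes with low counts were removed with filterByExpr, and each pair of groups was fitted alone, without covariates, with limma-voom and TMM factors, the test the methods name. Calls used its thresholds of p below 0.05, not adjusted, with a fold above 1.5, and adjusted p-values are Benjamini-Hochberg values of limma over all genes tested. The paper describes its replicates as separate LSEC isolations. The sample labels do not say how many rats went into each, and p-values measure the spread between these libraries. Tools were limma 3.58.1, DESeq2 1.42.0 and edgeR 4.0.16 under R 4.3.3, and matplotlib 3.10.9 under Python 3.11.15. The code of the fits was tried on simulated counts in which a small set of genes changed, evenly in both directions, with the same dispersion for all genes. These data have far more called genes, so the simulation cannot speak for the fits here. CPM used TMM factors, and log2 CPM a pseudocount of 0.5.

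Groups came from the sample labels, and the duration of cirrhosis from the series description. Replicate numbers came from the titles. Among groups that share numbers, 14 pairs of same-numbered libraries had correlations of their deviations from -0.242 to 0.29, and only 2 libraries matched their own number best, so no block was used.

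The genes and lists were chosen with earlier results of these data known. Beside the 10 genes, the text names the 2 genes of each pathway list with the largest change among those called after acute injury and at cirrhosis, and the closest genes in pattern with a mean log2 CPM of at least 1. Nrarp at cirrhosis, Heyl in the TAA experiment and single markers were named after their values were seen. Marker lists of hepatocytes, bile duct cells, macrophages, neutrophils and lymphocytes were also read. Alternatives tried were adjusted p-values, no fold threshold, edgeR, DESeq2, other scaling, other filters, library weights, 1 fit over the 22 CCl4 libraries, the replicate block and each library left out. Replicates 14 and 15 labelled TAA control were also summed in a further fit and both left out in another. Promoter sequences are RefSeq's for GRCr8, another assembly than that of the reads.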

Additional observations from a re-analysis of the deposited data

Results flagged for a closer look

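Single libraries that stood apart from their group were found in 6 of 60 groups of values tested with Dixon's ratio. Chance gives about 3, that is 1 in 20. The ratio is the gap to the nearest library divided by the range of the group. Both were taken on log2 CPM with a pseudocount of 0.5, while the levels beside the ratios are plain CPM. Acute replicate 8 was low in Notch4 (ratio 0.812, 1.89 CPM where the next library had 20.4) and high in Hey1 (0.787, 0.5999 CPM against 0.191). Fibrosis replicate 15 was high in Dll4 (0.949, 17.8 CPM against 9.09) and in Jag1 (0.813, 20.3 CPM against 14.2). Cirrhosis replicate 2 was high in Jag1 (0.734, 59.7 CPM against 39.8), and healthy replicate 5 in Hes1 (0.69, 972 CPM against 516). Leaving out fibrosis replicate 15 gave log2 fold changes against healthy of -6.37 for Dll4, with the call kept.

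In 2 genes the change against healthy LSECs had opposite directions at different stages, with both calls made, though the acute call of Jag1 was lost under 5 alternatives and the fibrosis call of Notch3 under 4. Notch3 was lower after acute injury and in fibrosis and higher at cirrhosis, and the direct comparison gave log2 fold changes of 4.99 for cirrhosis against acute injury and 4.09 for cirrhosis against fibrosis. Jag1 was lower after acute injury and higher at cirrhosis, with a direct log2 fold change of 1.79.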

How the results depend on the processing

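Of 1569 alternative values for the log2 fold changes of the 10 genes in 7 comparisons, 1529 kept direction and call, 15 lost the call, 15 gained it and 10 changed sign. The sign changes were all in values that were not called. They were Jag1 in fibrosis against healthy with library totals alone (0.0346), Dll1 at cirrhosis against healthy with edgeR (-0.0376), DESeq2 (-0.0184) and library weights (-0.0140) and with single libraries left out (-0.0944 to 0.30), and Notch4 between the TAA labels with single libraries left out (-0.0057 to 0.11). Numbers of calls moved by over 1.5 times in 2 comparisons. From acute injury to fibrosis these were 8 of the 10 genes without the fold threshold and 3 in 1 fit over the 22 libraries (without Notch3 and Jag2), in place of 5, and for the other pathway genes 3 with adjusted p-values, 11 without the fold threshold and 11 without a low-count filter, in place of 6. Between the TAA labels 28 other pathway genes were called without the fold threshold, in place of 15. The cause of these moves was not tested beyond what each setting changes. With single libraries left out, the calls among the 10 genes ran from 8 to 10 after acute injury, from 7 to 9 in fibrosis, from 5 to 6 from acute injury to fibrosis and from 5 to 6 between the TAA labels, and stayed at 6 at cirrhosis.

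With the replicate number as a block, possible where healthy, acute and cirrhotic libraries share numbers, 28 of 30 values kept their call. After acute injury Jag1 (-0.46) lost it and Notch2 (-0.997) gained it, and over all genes the block gave 11020 calls in place of 10611, and 7976 in place of 8058 at cirrhosis. No source says that a number marks a shared animal or day. Depth limits the low genes most: Jag2, Hey1 and Notch3 rest on 4 to 25 counts per acute library.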
